A study of Nicotiana plumbaginifolia and Nicotiana benthamiana and Nicotiana rustica with 81 samples.

Results

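A pair of transcripts described in the deposited table as secoisolariciresinol dehydrogenase-like, XM_016584549.1 and XM_016585496.1, were followed through the floral nectaries of Nicotiana. They are 2 of 9 transcripts with that description and 2 of 38230 transcripts in all. They were chosen by measured levels, as standing among the most abundant or most strongly falling nectary transcripts of these same data. The values that likely chose them are the stage 12 level of XM_016585496.1 in N. benthamiana and the drop of XM_016584549.1 after stage 12. These are given below as descriptions with no test, and other nectary levels may also have counted.

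Secoisolariciresinol dehydrogenase, known from Forsythia and Podophyllum, oxidises the lignan secoisolariciresinol to matairesinol with NAD as cofactor. It belongs to the short-chain dehydrogenases and reductases, a large family that also holds tropinone reductases and xanthoxin dehydrogenase (ABA2 in Arabidopsis), which makes abscisic aldehyde on the way to the hormone abscisic acid. The "-like" description is an automatic annotation of the N. tabacum transcript, and it names a similarity in sequence, not a measured enzyme activity. The nectary is the gland at the base of the ovary that stores starch in young flowers and secretes sugar-rich nectar at flower opening.

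RNA was sequenced from hand-dissected nectaries of 6 Nicotiana species, each from 1 germplasm seed accession, namely N. benthamiana, N. rustica, N. glauca, N. plumbaginifolia, N. bonariensis and N. clevelandii, with no treatment named in the labels. Flowers were taken at stage 6 (immature), stage 9 (immature, before secretion), stage 12 (anthesis, when the flower opens) and after secretion, which the protocol calls post-fertilization. Leaf, ovary and sepal of N. plumbaginifolia completed the 27 groups of 3 libraries, and the protocol names stems where the titles name sepal. Nothing in the labels says whether the 3 libraries of a group came from separate plants, so p-values built on group SDs measure only the spread between those libraries. The limma fit across species used group means only, and its p-values measure the spread between species.

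The table held group means and SDs of normalized counts, not values of single libraries, so the 3 values behind each mean cannot be shown and depth per library is unknown. All 38230 means and SDs of N. clevelandii were equal to those of N. bonariensis in all 4 stages. That profile was counted once and is called the joint profile, which leaves 5 nectary profiles and 23 distinct groups. The summed levels of the marker list for nectary (SWEET9, CRABS CLAW, MYB305 and nectarin transcripts) were 8913 to 92343 at stages 6 to 12, 904 to 6103 after secretion and 326 to 2973 in leaf, ovary and sepal. Those of the leaf list (Rubisco small subunits and chlorophyll-binding proteins) were 1571 to 13216, 15273 to 41148 and 24723 to 347195 in the same order. In the post secretory nectary no gene of the nectary list was at 0 in any profile, nor were the leaf genes, except for 1 chlorophyll-binding transcript at 0 in 3 profiles. Ovule markers summed to 3681 to 11731, 1641 to 3884 and 1017 to 4646, and of the 15 nectary groups of stages 6 to 12, SHP1 and STK were above 0 in each (2794 to 9051 and 91 to 2521), BEL1 was at 0 in 3 and INO at 0 in 12. Anther and tapetum markers summed to 14 to 283, 35 to 179 and 85 to 1076. A level of 0 for a species means that the N. tabacum accession was listed at 0 there, since the table lists matches of each species to N. tabacum accessions. The share of transcripts listed at 0 in all 4 nectary stages was 27.0% for N. benthamiana, 33.1% for N. rustica, 29.5% for N. glauca, 37.3% for N. plumbaginifolia and 18.9% for the joint profile.

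XM_016584549.1 (LOC107765848) has Arabidopsis AT1G52340, the ABA2 locus, as its listed match. It was above 0 in every nectary group of all 5 profiles, high before or at anthesis and low after secretion, and it was at 0 to 2 in leaf, ovary and sepal. Levels below are mean normalized counts ± SD of 3 libraries and are not corrected for transcript length.

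In N. rustica, XM_016584549.1 stood at 20307 ± 529 at stage 6, 37684 ± 1869 at stage 9, 6744 ± 165 at stage 12 and 37 ± 24 after secretion. In the joint profile it was 14409 ± 582, 8558 ± 635, 5419 ± 127 and 27 ± 10 at the same stages. In N. glauca it was 1776 ± 118, 5961 ± 112, 3808 ± 2022 and 27 ± 2. N. rustica was thus highest at stage 9 and the joint profile highest at stage 6, while the N. glauca stage 12 libraries were far apart from each other. Over transcripts with a mean of at least 100 there, that group's median SD was 0.169 of the mean. The part of this spread in the results at this stage was not tested.

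In N. benthamiana, XM_016584549.1 went from 3149 ± 119 at stage 6 to 1601 ± 43 at stage 9, 322 ± 18 at stage 12 and 11 ± 1 after secretion. In N. plumbaginifolia it was 623 ± 81, 1216 ± 116, 238 ± 18 and 45 ± 9. The 5 post secretory means, 11 to 45, lay below every mean of stages 6 to 12, which ran from 238 to 37684. Ordered over all 23 groups, neighbouring means were separated by more than their SDs, except joint stage 12, N. glauca stage 12 and N. benthamiana stage 6, whose neighbours overlapped, and except for the groups at 45 to 27 and at 2 to 0.

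**Figure D1:**
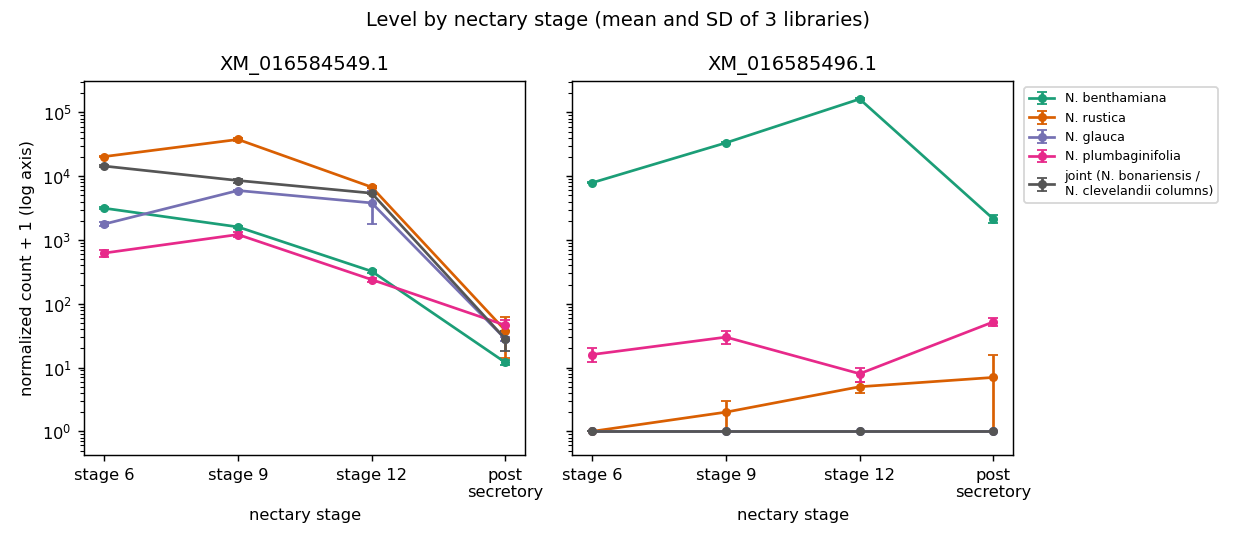
Mean normalized count + 1 (log axis) of XM_016584549.1 (left) and XM_016585496.1 (right) at 4 nectary stages in 5 profiles, with bars of 1 SD over 3 libraries. XM_016584549.1 lies between 238 and 37684 at stages 6 to 12 and between 11 and 45 after secretion, and XM_016585496.1 is high in N. benthamiana, with the N. glauca and joint lines lying on each other at 0.

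The drop from stage 12 to the post secretory stage is likely what chose XM_016584549.1 and is given without a test. N. benthamiana was 29.3-fold lower, N. rustica 182-fold, N. glauca 141-fold, N. plumbaginifolia 5.29-fold and the joint profile 201-fold. Over the 5 profiles the log2 difference was -5.86 (SE 0.72), lower in 5 of 5, and -6.73 with N. plumbaginifolia left out. Across the same step the nectary marker sums dropped and the leaf marker sums were higher (values above), and their part in the difference was not tested. In dissected tissue, fewer cells of a type and less RNA per cell cannot be told apart.

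The steps between stages 6 and 9 do not use the stages of that drop. The levels of XM_016584549.1 there may still have counted in the choice, since it ranked 17 and 15 among all transcripts in N. rustica. In the joint profile it ranked 25 and 57. Its adjusted p-values for this step are given with that limit. XM_016584549.1 rose from stage 6 to stage 9 in 3 profiles and fell in 2. It rose 1.86-fold in N. rustica (log2 change 0.89, SE 0.29, adjusted p = 0.03), 3.36-fold in N. glauca (1.75, SE 0.26, adjusted p = 0.00036) and 1.95-fold in N. plumbaginifolia (0.96, SE 0.33, adjusted p = 0.039), by a moderated test on the deposited means and SDs with limma. It was 1.97-fold lower at stage 9 in N. benthamiana (log2 change -0.98, SE 0.08, adjusted p = 2.6e-09) and 1.68-fold lower in the joint profile (-0.75, SE 0.19, adjusted p = 0.0089), by the same limma test. In that direction the test called 18.8% of transcripts for N. rustica, 21.0% for N. glauca, 14.7% for N. plumbaginifolia, 27.8% in N. benthamiana and 13.3% in the joint profile. The N. plumbaginifolia call did not pass with no filter on low values (adjusted p = 0.056) or with a delta-method variance (0.059), both by limma.

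Stage 12 is one end of the drop that likely chose XM_016584549.1, so its differences from stages 9 and 6 are given as values with no test. From stage 9 to stage 12 its mean was lower in all 5 profiles, as it was for 509 of 36627 transcripts (1.39%). It was 4.97-fold lower in N. benthamiana, 5.59-fold in N. rustica, 5.11-fold in N. plumbaginifolia, 1.58-fold in the joint profile and 1.57-fold in N. glauca. In N. glauca the means behind this were 5961 ± 112 and 3808 ± 2022, and the authors' deposited table marks that pair as not different.

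Between stage 6 and stage 12 the mean was 9.78-fold lower in N. benthamiana, 3.01-fold in N. rustica, 2.62-fold in N. plumbaginifolia and 2.66-fold in the joint profile. In N. glauca it was 2.14-fold higher at stage 12. There the stage 12 mean less its SD lay within the range of stage 6, and the authors' deposited table marks this pair as not different.

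**Figure D2:**
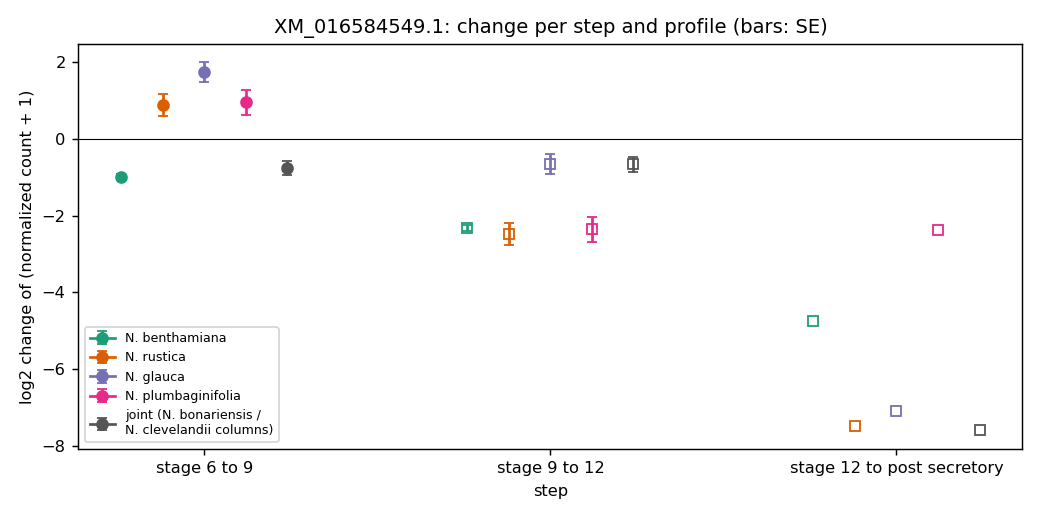
log2 change of (normalized count + 1) of XM_016584549.1 at 3 successive steps in 5 profiles, filled circles for the tested step and open squares for the untested ones, with bars of 1 SE at the first 2 steps. The first step is above 0 in 3 profiles and below 0 in 2, the second is below 0 in all 5, and the third runs from -2.38 in N. plumbaginifolia to -7.60 in the joint profile.

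The change from stage 6 to stage 9 differed between profiles. A test of profile by stage gave a spread of 2.72 log2 units from the lowest to the highest profile (F = 26.8, limma adjusted p = 1e-09). Such a difference was called for 50.8% of transcripts, so XM_016584549.1 was one of many. Its levels at stages 6 and 9 may have counted in the choice, and the p-value of this test carries that limit. A limma fit that asks for a common change over the 5 profiles gave a log2 value of 0.38 for this step (SE 0.72, adjusted p = 0.91), higher in 3 of 5, and called 0 transcripts in all. For stage 9 to 12 and stage 6 to 12 the same fit gave -1.69 and -1.31 (SE 0.72), with no test here.

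In the authors' deposited table, 28 of 30 pairs of nectary stages were marked as different for XM_016584549.1, the exceptions being stage 12 of N. glauca against stages 6 and 9. The same table marks between 9.19% and 29.0% of transcripts in any one such pair.

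In N. plumbaginifolia, XM_016584549.1 was listed at 0 in leaf and in sepal and at 2 ± 2 in ovary, against 623, 1216, 238 and 45 in the 4 nectary stages. No fold is given against these tissues, since the ovary SD is as large as its mean and the other two are at 0. The authors' deposited table marks stages 6, 9 and 12 as different from each of the 3 tissues and the post secretory stage as different from none. It marks 21.0% to 40.5% of transcripts in any one nectary and tissue pair, and it marks none of the 3 tissue pairs for XM_016584549.1. Ovary against leaf passed the moderated limma test (adjusted p = 0.00066), as did ovary against sepal (0.00062), where 38.6% and 35.4% of transcripts were called higher in ovary. Both calls rest on a mean of 2 and were lost with a pseudocount of 10 (limma adjusted p = 0.16 for each), and ovary against leaf also when only those 2 groups gave the spread (0.075). The transcript met the filter in this species only through its nectary levels. Its spread came from the nectary stages and ovary, since groups at 0 were left out. Neither call is therefore read as a difference between tissues. Leaf had the widest spread of all groups, with a median SD of 0.323 of the mean over transcripts with a mean of at least 100.

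XM_016585496.1 (LOC107766677) has no Arabidopsis match in the table. It was the most abundant transcript of the N. benthamiana nectary at anthesis, and it was low or listed at 0 in the other 4 profiles. In N. benthamiana it was 7902 ± 143 at stage 6, 33373 ± 1169 at stage 9, 162193 ± 5802 at stage 12 and 2135 ± 291 after secretion. Its rank among all transcripts there was 57, 6, 1 and 396, with no correction for length, and at stage 12 it held 1.604% of the summed levels.

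From stage 6 to stage 9 in N. benthamiana, XM_016585496.1 was 4.22-fold higher (log2 change 2.08, SE 0.08). Its abundance in this species is the likely reason it was chosen, so this step and the next are given without a test. The mean was 4.86-fold higher at stage 12 than at stage 9 and 20.5-fold higher than at stage 6, then 76.0-fold lower after secretion. XM_016584549.1 went the other way in the same libraries, with a lower mean at each stage from 3149 at stage 6 to 322 at stage 12.

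In N. plumbaginifolia the nectary levels of XM_016585496.1 were 15 ± 4, 29 ± 7, 7 ± 2 and 51 ± 7 in stage order. It rose 1.93-fold from stage 6 to 9 (log2 change 0.91, SE 0.26, limma adjusted p = 0.012) and fell 4.14-fold from stage 9 to 12 (-1.91, SE 0.26, limma adjusted p = 4.6e-05). Stage 12 was also 2.14-fold lower than stage 6 (log2 change -1.0, SE 0.26, limma adjusted p = 0.007). These calls rest on means of 7 to 29. In the same directions the test called 14.7% of transcripts from stage 6 to 9, 12.0% from stage 9 to 12 and 14.4% from stage 6 to 12. The post secretory mean was 7.29-fold above stage 12, with no test, and was thus the highest of the 4 nectary means. The authors' deposited table marks none of these N. plumbaginifolia nectary pairs as different.

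N. rustica listed XM_016585496.1 at 0, 1 ± 1, 4 ± 1 and 6 ± 9 normalized counts. N. glauca and the joint profile listed it at 0 in all 4 stages, as they did 29.5% and 18.9% of transcripts. Its levels therefore ordered as N. benthamiana above N. plumbaginifolia, with N. rustica at or below the lowest N. plumbaginifolia value. A 0 cannot be told apart from a sequence that was not matched to this accession in that species. Its mean over the 20 nectary groups is set by N. benthamiana, so changes common to the 5 profiles or different between them were not tested for it.

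Outside the nectary, XM_016585496.1 was 296 ± 25 in sepal, 35 ± 10 in leaf and 3 ± 1 in ovary of N. plumbaginifolia. Sepal was above leaf (log2 difference 3.04, SE 0.26, limma adjusted p = 7.1e-09) and ovary was below leaf (-3.17, SE 0.26, adjusted p = 3.9e-09) and below sepal (-6.21, SE 0.26, adjusted p = 2.5e-13). The test called 33.8%, 30.6% and 35.2% of transcripts in those directions. The sepal mean was also above each nectary mean of this species, by 19.7-fold, 10.2-fold, 42.3-fold and 5.80-fold, in stage order. The authors' deposited table marks sepal as different from each of these 4, and none of the stages as different from leaf or ovary. It marks 2 of the 3 tissue pairs for XM_016585496.1, both with sepal, in columns that mark 19.2% to 38.2% of transcripts.

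**Figure D3:**
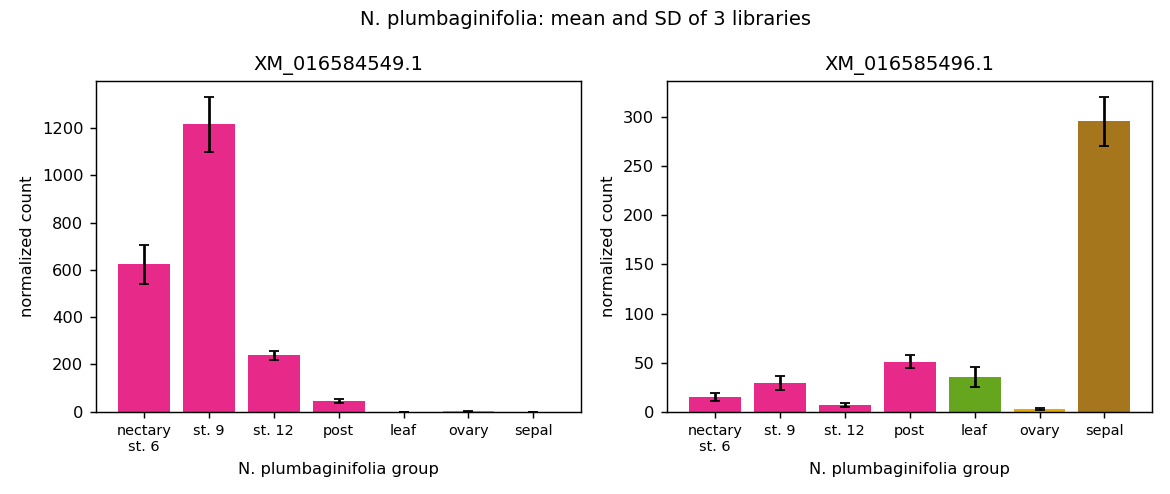
Mean normalized count (linear axis from 0) of XM_016584549.1 (left) and XM_016585496.1 (right) in 4 nectary stages and in leaf, ovary and sepal of N. plumbaginifolia, with bars of 1 SD over 3 libraries. XM_016584549.1 is highest at stage 9, at 1216, and at 0 to 2 outside the nectary, while XM_016585496.1 is highest in sepal, at 296.

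The other 7 transcripts with the same description had lower peaks than the 2 members, but were not lower in every group. XM_016653835.1, matched to the Arabidopsis short-chain dehydrogenase locus AT3G26770, was above 0 in all 5 profiles and ran from 12 to 3276. It stood at 741 ± 28, 1123 ± 29, 2630 ± 77 and 1006 ± 288 in N. benthamiana and at 1276 ± 14, 3276 ± 143, 2861 ± 38 and 65 ± 27 in N. rustica. In N. glauca it was highest after secretion, at 476 ± 126, against 12 to 29 at stages 6 to 12. In N. plumbaginifolia it was also highest after secretion, at 1056 ± 36, against 960 ± 54 at stage 12. The joint profile was highest at stage 12, at 1112 ± 173. At stage 12 XM_016653835.1 was above XM_016584549.1 in N. benthamiana (2630 against 322) and N. plumbaginifolia (960 against 238), and below it in the other profiles. After secretion its mean was above that of XM_016584549.1 in all 5 profiles.

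XM_016604704.1 was above 0 in all 5 profiles within a narrower range, 188 to 1051, and was highest in ovary, at 1153 ± 58. Its listed Arabidopsis match, AT5G16800, is an acyltransferase locus, not a short-chain dehydrogenase. XM_016647823.1 shares the AT1G52340 match of XM_016584549.1, but its highest nectary mean was 373 ± 288, after secretion in N. rustica, and it was listed at 0 in N. benthamiana and N. plumbaginifolia nectaries. XM_016609315.1 has the same match and reached 177, after secretion in N. benthamiana.

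XM_016600525.1 and XM_016600526.1 come from a single locus, LOC107780016, and may share reads. XM_016600525.1 was 211 ± 14, 79 ± 8, 126 ± 6 and 55 ± 49 in the joint profile, and 29 ± 5, 16 ± 7, 20 ± 6 and 412 ± 578 in N. rustica, where the last SD exceeds the mean. XM_016600526.1 was highest at stage 6 of the joint profile, at 244. XM_016648914.1 was listed at 0 in every nectary group and stood at 284 ± 259 in leaf, 159 ± 10 in sepal and 1 in ovary. Of the 7, 6 passed the filter of a nectary mean of at least 10. By the limma fit over profiles 0 of those 6 were called at any step, and at an unadjusted p under 0.05 there were 2, both higher after secretion. In the step after stage 12, 5955 of all 36627 tested transcripts were under that unadjusted threshold, with both directions counted.

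**Figure D4:**
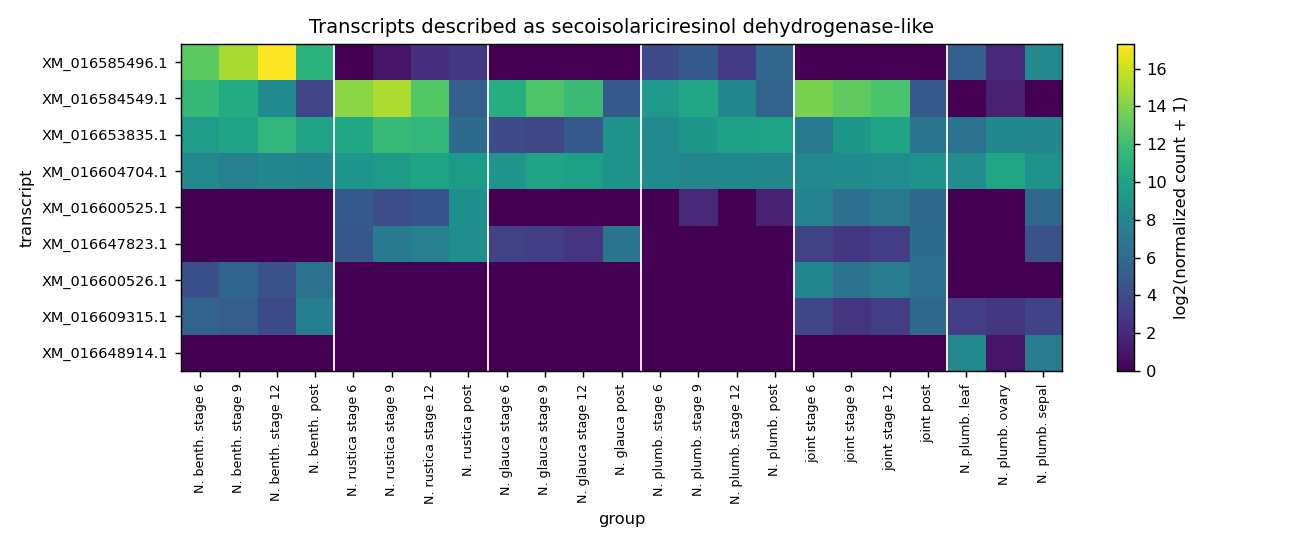
log2(normalized count + 1) of the 9 transcripts described as secoisolariciresinol dehydrogenase-like (rows) in 20 nectary groups and 3 other tissues of N. plumbaginifolia (columns), dark for 0. XM_016585496.1 is bright in N. benthamiana and XM_016584549.1 in all 5 profiles before the post secretory stage, and XM_016648914.1 is above 0 only in the 3 other tissues.

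Genes of the surrounding pathways were described from lists matched by Arabidopsis locus or description. In the limma fit over profiles, none of the 4 other lists had a transcript called from stage 6 to 9, 9 to 12 or 6 to 12. Over all transcripts that fit called 0, 0 and 0.838% in those steps. At an unadjusted p under 0.05, abscisic acid synthesis had 2, 2 and 3 of 19 and monolignol synthesis 2, 1 and 11 of 56. Dirigent proteins and lignan reductases had 0, 2 and 2 of 15, and related short-chain dehydrogenases 0, 1 and 5 of 15. Among all 36627 tested transcripts the counts at that threshold were 2990, 1776 and 6136. The list counts were not tested against these. After stage 12, in the step into the post secretory stage, the fit called 0.554% of all transcripts lower and 0.232% higher.

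In that last step, 5 of 19 abscisic acid synthesis transcripts fell and 0 rose, with a median log2 change of -1.43 against -0.04 over all transcripts. They were 2 zeaxanthin epoxidases (ABA1), which make the epoxidised precursor, 1 ABA4, needed for neoxanthin formation, and 2 dioxygenases (NCED3 and NCED6), which cleave it to xanthoxin. The zeaxanthin epoxidase XM_016620556.1 had a log2 change of -3.84 (SE 0.63, limma adjusted p = 0.011), lower in 5 of 5 profiles, and the NCED6 transcript XM_016602905.1 had -5.27 (SE 0.97, limma adjusted p = 0.023), lower in 5 of 5. These were named after their values were seen. The count was 0 with N. benthamiana, N. glauca or the joint profile left out, 2 without N. rustica and 3 with no filter. As given above, nectary and leaf marker sums moved over this step too, and their part was not tested.

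XM_016620556.1 was highest at stage 9 in N. rustica, at 55944 ± 1952, and at stage 12 in N. plumbaginifolia, at 13366 ± 497. XM_016602905.1 was highest in N. rustica at stage 9, at 39628 ± 354, as XM_016584549.1 was. In N. benthamiana the 2 went apart from it: XM_016602905.1 was 22 ± 3 at stage 6 and 82 ± 7 at stage 12, and XM_016620556.1 was 2752 ± 142 and 4012 ± 331.

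Among dirigent proteins and lignan reductases, which act before secoisolariciresinol, 1 of 15 was called, an isoflavone reductase homolog matched to the pinoresinol reductase locus PRR1. That transcript, XM_016630531.1, rose after stage 12 (log2 change 3.54, SE 0.45, limma adjusted p = 0.0029) in 5 of 5 profiles, and the call was lost without the joint profile. The list's median log2 change was 0.32. Monolignol synthesis, which supplies the coniferyl alcohol that lignans are built from, had 0 of 56 called and a median of 0.57, with 15 higher and 0 lower at an unadjusted p under 0.05. Related short-chain dehydrogenases had 0 of 15 called and a median of 0.09, with 0 higher and 3 lower at that unadjusted threshold. Among all 36627 tested transcripts 5955 were under it in this step, with both directions counted, and the list counts were not tested against that.

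Among the transcripts of highest nectary mean in these lists, the phenylalanine ammonia-lyases X78269.1 and XM_016579700.1, first enzyme of the phenylpropanoid pathway, had log2 differences of 0.48 and 0.42 from stage 6 to 12 (limma adjusted p = 0.56 and 0.77). The pinoresinol-lariciresinol reductase XM_016619790.1, the reductase type that yields secoisolariciresinol, had -1.06 (SE 0.26, limma adjusted p = 0.073), lower in 5 of 5 profiles, and dirigent protein 22-like XM_016577925.1 had 0.15 (adjusted p = 0.82). The tropinone reductase homolog XM_016586593.1 had -0.75 (SE 0.23, limma adjusted p = 0.13), also lower in 5 of 5. The short-chain dehydrogenase XM_016660001.1 was listed at 0 in N. benthamiana, N. rustica and N. plumbaginifolia and reached 3001 ± 128 at stage 6 of the joint profile. None of these passed in the fit over profiles, the zeaxanthin epoxidases XM_016620556.1 and XM_016582459.1 included (2.30 and 1.70, limma adjusted p = 0.096 and 0.21).

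Within single profiles many of the same transcripts did pass from stage 6 to 12, by the limma test on means and SDs. XM_016586593.1 fell in all 5 profiles, with log2 changes from -0.43 in N. benthamiana (adjusted p = 6.7e-05) to -1.10 in the joint profile (adjusted p = 0.00031). XM_016619790.1 fell in 4, from -0.37 in N. benthamiana (adjusted p = 0.0073) to -2.01 in the joint profile (adjusted p = 4.7e-05), and did not pass in N. plumbaginifolia (-0.38, adjusted p = 0.13). XM_016620556.1 rose in all 5, from 0.54 in N. benthamiana (limma adjusted p = 8.9e-06) to 3.47 in N. plumbaginifolia (adjusted p = 1.3e-07), and XM_016582459.1 rose in the 4 profiles where it was above 0. The ammonia-lyase XM_016579700.1 rose in the joint profile (2.66, limma adjusted p = 1.6e-07) and in N. benthamiana (0.69, adjusted p = 3.7e-06) and fell in N. rustica (-0.82, adjusted p = 0.018). X78269.1 rose in N. benthamiana, N. glauca and the joint profile (1.15, 0.94 and 0.86, limma adjusted p = 1.9e-11, 0.0057 and 0.0054). XM_016577925.1 passed in 1 of 4 profiles, rising by 0.90 in the joint profile (limma adjusted p = 0.012), and XM_016660001.1 in N. glauca, at -1.20 (adjusted p = 0.0077).

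Counts over the whole lists for stage 6 to 12 are set beside the shares of all transcripts called higher and lower by the same limma test, which were 32.3% and 26.9% in N. benthamiana, 28.7% and 20.6% in N. rustica, 39.3% and 26.6% in N. glauca, 14.1% and 14.4% in N. plumbaginifolia, and 19.3% and 13.7% in the joint profile. Of monolignol transcripts, 11 rose and 14 fell of 37 tested in N. benthamiana, 5 and 19 of 34 in N. rustica, and 7 and 16 of 30 in N. glauca. N. plumbaginifolia had 8 that rose and 9 that fell of 39, and the joint profile 22 and 3 of 42. Those that fell thus clearly outnumbered those that rose in N. rustica and N. glauca, and the reverse held in the joint profile. In N. benthamiana and N. plumbaginifolia the counts were near balance.

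Of abscisic acid synthesis transcripts, 4 rose and 11 fell of 16 in N. benthamiana, and 8 rose and 3 fell of 15 in N. glauca. The other profiles were nearer to balance, with 3 that rose and 2 that fell of 11 in N. rustica, 2 and 3 of 12 in N. plumbaginifolia, and 4 and 3 of 16 in the joint profile.

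The transcripts whose profile-centred pattern over the 20 nectary means was most like that of XM_016584549.1 were ranked by Pearson's r, a description over means that share libraries and normalization. First was XM_016659328.1, a mitochondrial pyruvate dehydrogenase E1 beta subunit (r = 0.976), which ran from 1006 to 1245 to 1034 to 546 in N. glauca, a far smaller range. Next were the uncharacterized XM_016634313.1 (0.975), the myosin heavy chain kinase B-like XM_016645773.1 (0.970), the dihydroflavonol-4-reductase-like XM_016594165.1 (0.969) and the uncharacterized XM_016645822.1 (0.966). XM_016634313.1 had levels of 60762, 74056, 34882 and 395 in N. rustica, with its peak at stage 9 as well. Between 2 and 3 of these 5 stayed among the 5 most alike when any 1 profile was left out.

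**Figure D5:**
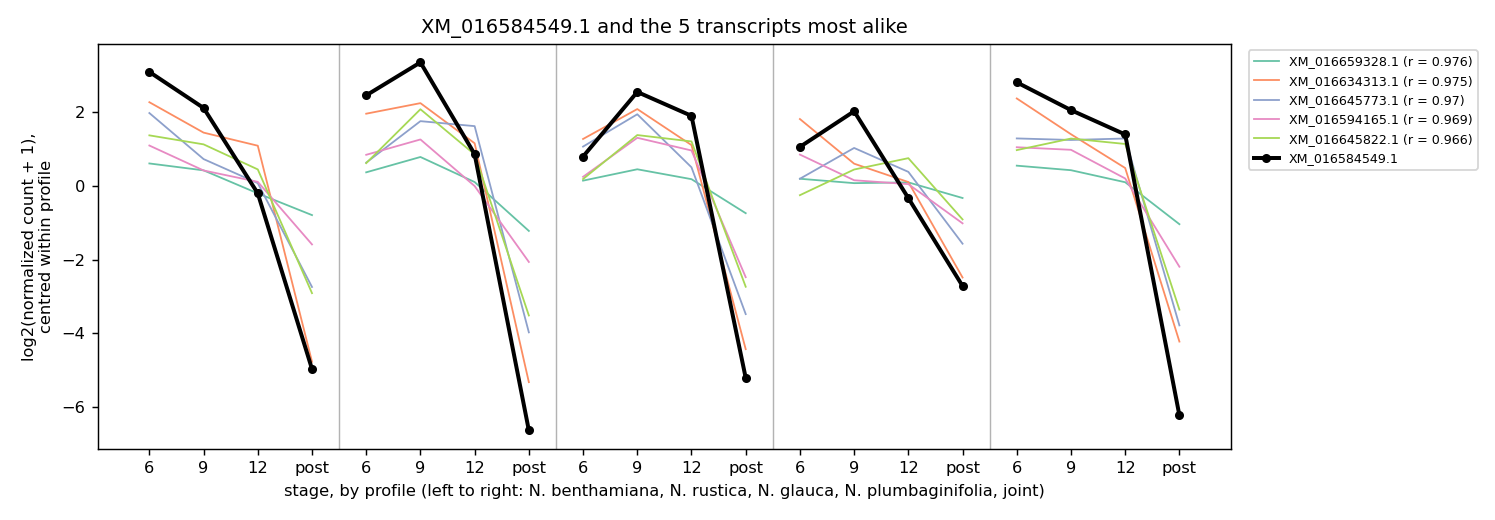
log2(normalized count + 1), centred within each profile, of XM_016584549.1 (black) and the 5 transcripts with the highest Pearson's r to it (colours) at 4 stages in each of 5 profiles. All 6 lines end low after secretion, and XM_016584549.1 has the widest range.

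For XM_016585496.1 the likeness was weaker and changed with the profiles used. The first was the uncharacterized XM_016629505.1 (r = 0.892), followed by a splicing factor SCL28 transcript, XM_016645081.1 (0.882), and an initiation factor 5-like transcript, XM_016623898.1 (0.881). The 4 N. benthamiana means of XM_016629505.1 were 403, 437, 461 and 356, a range of well under 2-fold. None of the 5 most alike stayed in that set when N. benthamiana was left out. Without the joint profile 1 stayed, without N. rustica 2, and without N. glauca or N. plumbaginifolia 3.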

How the data were processed

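The 1 deposited table gave, per N. tabacum transcript, the authors' group means and SDs of normalized counts in whole numbers (a score here, since the scaling is not stated in the file) and the authors' Y or N calls. DESeq is named in the submitters' processing notes. How reads were aligned, assembled and matched to accessions is not given in the sources used. Transcripts and lists were chosen with earlier results of these data known. Named transcripts were the 2 members, the 3 other transcripts of highest nectary mean in their description, the 2 of highest mean in each list, and the 5 most alike.

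Values were analysed as log2(mean + 1), with a filter of a mean of at least 10. Changes over profiles used limma 3.58.1 with trend and profile as a block (36627 transcripts, 12 residual degrees of freedom). Steps inside single profiles, tissue differences and profile differences used the deposited SDs, moderated with limma's squeezeVar, and Benjamini-Hochberg adjustment at 0.05. These are approximate, since 3 libraries entered only as a mean and SD. Planned tests were dropped for values that include a level taken to have chosen a transcript, and for XM_016585496.1 over all profiles. Groups listed at 0 were left out of the spread, a departure from the planned design made because simulated data gave false calls with them included. On simulated data the means and SDs test of ovary against leaf recovered 92 of 100 changes of 4-fold and 60 of 100 of 2-fold, with 9 false calls among 26808 transcripts. No group was set at 0 there, so that simulation does not check how such groups were handled. The test of profile differences from stage 6 to 12 recovered 99 of 115 changes of 4-fold, with 24 false calls among 36627. The fit over profiles for that step recovered 85 of 100 of 4-fold and 99 of 100 of 16-fold, with 8 false calls. Column totals were 7824385 to 15248393. The highest was N. plumbaginifolia stage 9, which was 8104998 without the transcript XM_016598866.1.

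Alternatives were a pseudocount of 10, no filter, median-of-ratios rescaling, a delta-method variance, the spread of the compared groups alone, both copies of the joint profile entered and each profile left out. After the data were seen, a spread with groups at 0 included was added.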

Additional observations from a re-analysis of the deposited data

Results flagged for a closer look

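For XM_016584549.1 the change from stage 6 to 9 differed between the 5 profiles by a test of profile by stage. The distance from the lowest to the highest profile was 2.722 log2 units, from -0.98 in N. benthamiana to 1.75 in N. glauca. The levels of XM_016584549.1 at these stages may have counted in its choice, and the test called 50.8% of transcripts.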

How the results depend on the processing

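Of 244 alternative values for both transcripts, 238 kept their direction and, where tested, their side of the threshold, 5 no longer passed, 1 moved by more than its error and 0 reversed. All adjusted p-values here are from limma. All 6 that changed concerned XM_016584549.1. Ovary against leaf and against sepal shrank to 0.26 with a pseudocount of 10 (0.16 for each), and ovary against leaf at 1.58 was lost with the spread of those groups alone (0.075). Stage 6 to 9 in N. plumbaginifolia at 0.96 was lost with no filter (0.056) and with the delta-method variance (0.059). The drop after stage 12 ran from -5.42 to -6.73 with 1 profile left out.

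The shared counts rest on single profiles. From stage 6 to 12, 307 transcripts were called, and 105, 4, 41, 114 and 27 without N. benthamiana, N. rustica, N. glauca, N. plumbaginifolia and the joint profile. After stage 12, 288 were called, and 35, 33, 35, 724 and 2 in that order. Both copies entered gave 111, 3, 2275 and 1967 over the 4 steps. From stage 6 to 9 and 9 to 12, 0 were called by limma, with 2990 and 1776 at an unadjusted p under 0.05, and 3 at stage 6 to 9 without N. glauca. With the spread of the compared groups alone, calls rose from 8586 to 13194 and 6515 to 11477 in N. rustica (stage 6 to 9 and 9 to 12), 7944 to 14382 in N. glauca (6 to 9), 7650 to 12742 in N. plumbaginifolia (6 to 12), and 8388 to 12853, 2408 to 5643 and 9560 to 15800 in the joint profile. No paired analysis was possible because the columns carry no replicate values, and single libraries could not be left out for the same reason.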
